A study of Mus musculus with 4 samples.

Results

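The genes described here encode the 8 subunits of TRiC, also called CCT, the chaperonin of the eukaryotic cytosol. They are *Tcp1*, *Cct2*, *Cct3*, *Cct4*, *Cct5*, *Cct6a*, *Cct7* and *Cct8*. They were taken by gene symbol from the 23282 rows of each lung expression table, and all 8 had exactly 1 row. All 8 were also among the 15164 rows that passed the filter, a mean of 4 or more normalized reads over the libraries. The 4 lung libraries, 1 per group, were sequenced from the 3′ ends of mRNA of male CDF1 mice, in a design that crossed high-intensity treadmill running (E) with tumor (T). The resting healthy controls were E(-)T(-), the exercised healthy mice E(+)T(-), the resting tumor-bearing mice E(-)T(+) and the exercised tumor-bearing mice E(+)T(+). Where 4 values are given together, they follow this order. Tumor-bearing mice had CT26 cells, a murine colorectal carcinoma line, injected into the tail vein, so that the lung is both host tissue and a site where the cells can settle. The labels give postnatal day 28 as the age in every group, although the study's methods give that age for the purchase of the mice. Each group held 10 mice, and the sources used here do not say whether a lung library came from a single mouse or from a pool. For the calf muscle the study used a representative mouse of each group, and of the lungs it says only that their expression was analysed similarly. With 1 library per group, no difference below has a replicate check. Intervals in square brackets are 95% exact (Clopper-Pearson) intervals of read ratios, which cover counting error only and take every read as independent.

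TRiC is built from back-to-back rings of 8 different but related subunits. It encloses newly made proteins and uses ATP to help them fold. Actin and tubulin are its best known clients, and dividing cells also need it for cell cycle proteins such as Cdc20. Prefoldin hands unfolded chains to TRiC, phosducin-like proteins act as its cochaperones, and the Hsp70 system works upstream of it. Within the ring, the subunits encoded by *Tcp1*, *Cct4*, *Cct2* and *Cct5* lie on the side that binds ATP tightly. Those encoded by *Cct7*, *Cct8*, *Cct6a* and *Cct3* lie on the side that binds it weakly. The levels below are given in that order.

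The genes are spread over 8 mouse chromosomes. In RefSeq annotation of GRCm38.p6, the assembly behind the mm10 build that the submitters' processing notes name, *Tcp1* spans chr17:12916329-12925067 on the plus strand, *Cct4* chr11:22990593-23003336 on the plus strand, *Cct2* chr10:117050997-117063852 on the minus strand and *Cct5* chr15:31590800-31601846 on the minus strand. *Cct7* spans chr6:85451505-85468477 on the plus strand, *Cct8* chr16:87483325-87495869 on the minus strand, *Cct6a* chr5:129787356-129846443 on the plus strand and *Cct3* chr3:88297135-88321766 on the plus strand. RefSeq promoter windows, from 250 bases before to 50 after an annotated start, were at hand for 7 of the 8 genes, with 9 windows in all, since *Cct2* and *Cct5* have a pair of starts each. *Cct4* was not among them. The 250 bases before the start are printed for 4 members, chosen for how their values behaved. *Cct7* had the largest exercise difference in healthy lung, *Cct6a* the largest tumor difference and *Cct8* the smallest, and *Cct5* followed the mean of the other subunits most closely. All are written 5′ to 3′ on the strand of the gene. They cover chr6:85451255-85451504 (plus strand) for *Cct7*, chr5:129787106-129787355 (plus strand) for *Cct6a*, chr15:31601847-31602096 (minus strand) for *Cct5* and chr16:87495870-87496119 (minus strand) for *Cct8*. Capitals mark any match to 6 short motifs searched on both strands, which are listed after the sequences.
Cct7: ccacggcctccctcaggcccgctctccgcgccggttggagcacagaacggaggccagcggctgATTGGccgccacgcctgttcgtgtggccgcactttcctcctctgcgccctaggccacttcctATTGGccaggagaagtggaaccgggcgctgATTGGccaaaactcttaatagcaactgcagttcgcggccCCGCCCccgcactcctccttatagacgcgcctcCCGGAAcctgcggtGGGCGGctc
Cct6a: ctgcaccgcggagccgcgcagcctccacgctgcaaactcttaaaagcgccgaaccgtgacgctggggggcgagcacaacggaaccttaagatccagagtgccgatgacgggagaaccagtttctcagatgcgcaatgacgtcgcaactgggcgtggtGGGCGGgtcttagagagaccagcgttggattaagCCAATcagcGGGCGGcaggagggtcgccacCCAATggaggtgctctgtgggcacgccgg
Cct5: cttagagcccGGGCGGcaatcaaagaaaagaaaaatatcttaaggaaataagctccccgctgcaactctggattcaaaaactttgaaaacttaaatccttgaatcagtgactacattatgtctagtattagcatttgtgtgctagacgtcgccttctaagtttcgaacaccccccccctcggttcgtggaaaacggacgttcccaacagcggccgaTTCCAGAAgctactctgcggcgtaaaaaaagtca
Cct8: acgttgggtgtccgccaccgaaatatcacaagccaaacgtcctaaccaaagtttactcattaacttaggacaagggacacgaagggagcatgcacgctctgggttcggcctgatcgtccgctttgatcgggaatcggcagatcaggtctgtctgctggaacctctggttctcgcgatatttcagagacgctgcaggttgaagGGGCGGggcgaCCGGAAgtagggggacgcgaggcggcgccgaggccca

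The motifs were the GC box of Sp factors (GGGCGG), the CCAAT box (CCAAT), the ETS core (CCGGAA), the E-box (CACGTG) and pairs of heat shock factor half-sites in either arrangement (GAANNTTC and TTCNNGAA). A GC box was present in 8 of the 9 member windows, in each of the 7 genes but not at the second start of *Cct5*, and in 35.7% of all 32851 windows of the same length. An ETS core was present in 5 of 9 member windows and in 14.9% of all windows. *Cct8* carried it at -37, counted from the start site to the first base of the match, and *Cct7* at -23. A CCAAT box was found in 4 of 9 member windows against 37.4% of windows. *Cct7* had 3 of them, at -187, -125 and -95, all on the opposite strand, and *Cct6a* had 2, at -59 and -29. The half-site pair TTCNNGAA was found in 2 of 9, in *Cct5* at -34 and in *Cct6a* at 25, the latter outside the printed stretch, against 8.52% of windows. GAANNTTC was found in 1 of 9, in *Cct2*, at -42 of its second start, against 7.86% of windows. The E-box was found in 0 of 9 against 7.15% of windows. A match is a description of these letters and not a binding site, and no match says only that the letters are not in this window.

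The libraries differed in more than TRiC. Library totals over all rows ran from 9354544 reads for E(-)T(+) to 13367975 for E(+)T(+). Hemoglobin genes took 14.33% of the reads in the resting control, 14.17% in the exercised control, 1.43% in the resting tumor-bearing lung and 31.43% in the exercised tumor-bearing lung. Of 8 genes that mark lung (surfactant proteins, *Ager*, *Scgb1a1*, *Cldn18* and endothelial *Cldn5* and *Pecam1*), 8 were at least 2-fold lower in E(-)T(+) than in E(-)T(-). Their summed level was 59200, 67600, 14400 and 45100 CPM (reads scaled to a common library total), so lung markers were present in every library and lowest in the resting tumor-bearing one. In normalized counts they summed to 654800, 793500, 147200 and 705500, which puts E(+)T(+) above E(-)T(-), unlike in CPM. The 10 dividing-cell markers summed to 42.9, 80.2, 1190 and 247 CPM. Of 6 epithelial genes listed for tumor cells of colon origin, *Cdx2* had 0 reads in every library, while *Krt20* had 0, 46, 2696 and 476. *Krt8*, *Krt18*, *Krt19* and *Epcam* had between 176 and 2566 reads in each library, with the fewest of each in E(-)T(+). With tumor at rest 1 of the 5 genes past the filter was at least 2-fold higher and 3 lower, and with exercise in tumor-bearing mice 4 were higher and 1, *Krt20*, lower. Of all filtered genes, 20.6% were at least 2-fold higher and 25.7% lower with tumor at rest. The shares with exercise in tumor-bearing mice were 24.3% and 17.7%. Neutrophil markers summed to 334, 955, 980 and 11700 CPM, T cell markers to 85.7, 64.2, 8.77 and 39.6, and endothelial markers to 1580, 1520, 192 and 918. In normalized counts these sums were 3696, 11210, 10050 and 183600 for neutrophil markers and 948.9, 754.4, 90.14 and 619.6 for T cell markers. For endothelial markers they were 17460, 17880, 1965 and 14350. In bulk tissue, fewer cells of a type and less RNA per cell cannot be told apart.

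All 8 subunits had their highest level in E(-)T(+), on the deposited scale and with both kinds of library total. On the deposited scale 7 of the 8 had their lowest in E(-)T(-). With library totals alone 6 of the 8 had it in E(+)T(+), and with totals that leave out hemoglobin 3 did. The values that follow are the deposited log2 values, that is log2(normalized read count + 1). *Tcp1*, the alpha subunit, stood at 10.05 in the resting control, 10.38 in the exercised control, 11.48 in the resting tumor-bearing lung and 10.67 in the exercised tumor-bearing lung. *Cct4*, the delta subunit, stood at 10.19, 10.45, 11.20 and 10.09 in the same order of libraries. *Cct2*, the beta subunit, stood at 9.97, 10.17, 11.47 and 10.46. The resting tumor-bearing lung was the highest library for each of these genes, and on this scale *Cct4* alone had its lowest value in E(+)T(+). Its values in E(+)T(+) and E(-)T(-) were not apart beyond counting error.

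*Cct5*, the epsilon subunit, stood at 10.06, 10.43, 11.23 and 10.27 in the order of libraries used above. On the other side of the ring, *Cct7*, the eta subunit, stood at 11.18, 11.91, 12.16 and 11.33. *Cct8*, the theta subunit, stood at 10.78, 11.12, 11.61 and 10.89. *Cct7* and *Cct8* were the members with the most reads in 3 of the libraries, and in E(-)T(+) *Cct6a* came second to *Cct7*. *Cct6a*, the zeta subunit in somatic tissues, stood at 10.16, 10.52, 11.85 and 10.68. *Cct3*, the gamma subunit, stood at 10.25, 10.48, 11.54 and 10.67. On the deposited scale the exercised tumor-bearing lung was in second place for *Tcp1*, *Cct2*, *Cct3* and *Cct6a*. The exercised healthy lung was second for *Cct4*, *Cct5*, *Cct7* and *Cct8*. Apart from *Cct4*, neighbouring values in each gene's order on this scale were apart beyond counting error. With library totals alone the exercised healthy lung was second for *Tcp1*, *Cct2*, *Cct3* and *Cct6a* too. In every library each subunit lay between the 88.0th and the 98.0th percentile of the filtered genes by normalized reads. The kit reads transcript ends, so these counts were not divided by gene length.

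**Figure D1:**
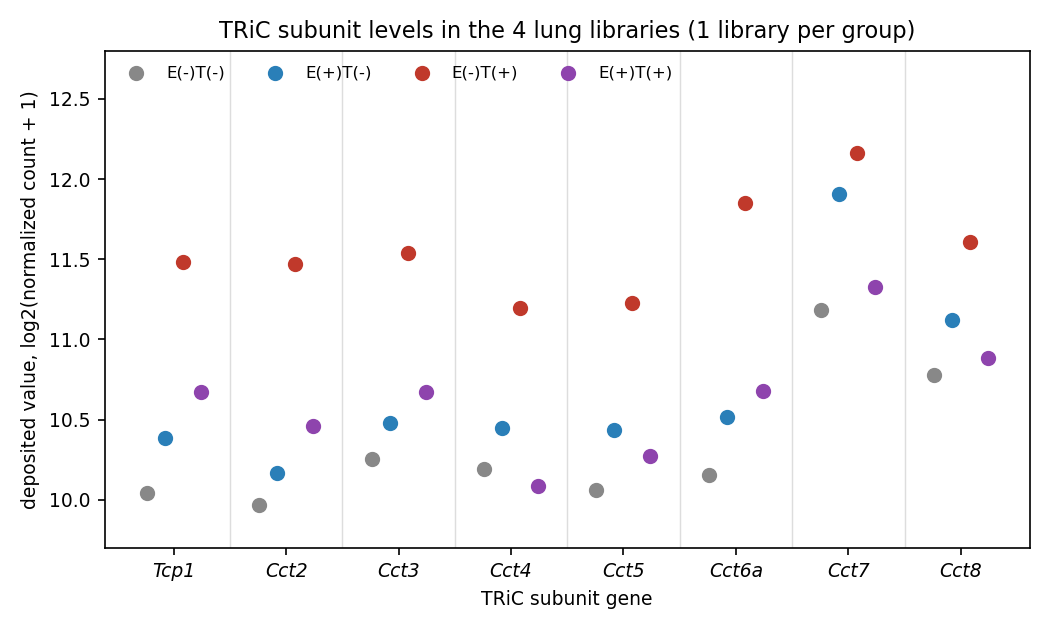
Deposited value of each TRiC subunit gene (y axis, log2 of the normalized read count + 1) in the 4 lung libraries, with 1 point per library and the groups told apart by color. The E(-)T(+) point is the highest for all 8 genes, from 11.20 for Cct4 to 12.16 for Cct7.

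Summed over the subunits, the resting control held 12622 reads, the exercised control 15475, the resting tumor-bearing lung 22646 and the exercised tumor-bearing lung 11192. As a share of all reads this was 0.0970% (95% Wilson interval 0.0953 to 0.0987), 0.121% (0.119 to 0.123), 0.242% (0.239 to 0.245) and 0.0837% (0.0822 to 0.0853). With hemoglobin reads left out of the totals, the shares were 0.113%, 0.141%, 0.246% and 0.122%. The exercised tumor-bearing library had the lowest share of all reads, whereas without hemoglobin the resting control had the lowest. The median log2 value of the 8 genes was 10.17, 10.46, 11.51 and 10.67, which puts E(-)T(-) lowest as well.

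The first comparison asked what running did to the lungs of healthy mice, E(+)T(-) over E(-)T(-). All 8 subunits were higher in the exercised library, by little. *Cct7* differed most, by 0.73 on the log2 scale [0.66 to 0.80], or 1.65-fold, with 4177 against 2731 reads. *Cct5* was higher by 0.37 [0.26 to 0.48] and *Cct6a* by 0.36 [0.26 to 0.47]. *Cct8* followed at 0.35 [0.26 to 0.43] and *Tcp1* at 0.34 [0.23 to 0.45]. The smallest differences were those of *Cct4* at 0.26 [0.15 to 0.36], *Cct3* at 0.23 [0.12 to 0.33] and *Cct2* at 0.20 [0.08 to 0.31]. No member reached 2-fold, 0 of 8, where 9.98% of the 15164 filtered genes did so in either direction, 5.28% upward and 4.70% downward. Among the 9396 genes with a mean of 100 or more normalized reads, a range that holds all 8 subunits, the share was 2.13%. The median of the members was 0.34 against 0.00 over all filtered genes, of which 50.0% were higher.

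Other values stood beside this comparison. Of the 10 dividing-cell markers, 10 were higher in E(+)T(-), 5 of them at least 2-fold. Of 7 neutrophil markers past the filter, 5 were at least 2-fold higher, among them *Mpo* with 3 reads against 1. The part of these cells in the TRiC differences was not tested. A further 9 genes had 0 reads in the resting control and at least 500 normalized reads in the resting tumor-bearing lung. In the exercised control 9 of 9 had reads, between 0.64% and 2.18% of what the tumor-bearing lung showed. With the highest of these shares of the E(-)T(+) level taken out of E(+)T(-), an alternative added after seeing the data, the members' differences ran from 0.12 for *Cct2* to 0.69 for *Cct7*, with a median of 0.28. What part such reads had in the exercise differences was not tested.

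The second comparison asked how the tumor-bearing lung differed from the healthy one at rest, E(-)T(+) over E(-)T(-). All 8 subunits were higher, and 6 of 8 reached 2-fold. Of all filtered genes, 46.2% reached it in either direction, 20.6% upward and 25.7% downward. The share was 38.3% among genes with a mean of 100 or more. On the side of tight ATP binding, *Cct2* differed by 1.50 [1.40 to 1.60], with 2588 against 1179 reads and a 2.83-fold level. *Tcp1* differed by 1.44 [1.34 to 1.54], *Cct5* by 1.17 [1.07 to 1.27] and *Cct4* by 1.01 [0.91 to 1.11], so that *Cct4* sat at the limit itself. On the other side, *Cct6a* had the largest difference of all members at 1.70 [1.61 to 1.79], a 3.24-fold level with 3373 against 1341 reads. *Cct3* differed by 1.29 [1.20 to 1.38]. *Cct7* at 0.98 [0.91 to 1.05] and *Cct8* at 0.83 [0.75 to 0.91] were the members below 2-fold. The median was 1.23 against -0.03 over all filtered genes.

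The spread between members was itself larger than counting error. The intervals of *Cct6a* and *Cct8*, genes of neighbouring subunits in the ring, did not overlap. *Cct4* and *Cct7* crossed the limit under other scalings: *Cct4* stood at 0.91 with totals that leave out hemoglobin, and *Cct7* at 1.09 with library totals. In the same comparison 10 of 10 dividing-cell markers were at least 2-fold higher, and 8 of 8 lung markers at least 2-fold lower, with a median of -2.66. All 8 red blood cell, 4 T cell and 5 endothelial markers were at least 2-fold lower too, and *Cd3g* had 0 reads in E(-)T(+). Of 7 neutrophil markers, 6 were at least 2-fold higher, among them *Elane* with 1 read against 0. *Bub1* had 0 reads in E(-)T(-). The part of these cell types in the TRiC differences was not tested.

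The third comparison asked what running did in tumor-bearing mice, E(+)T(+) over E(-)T(+). It shares the E(-)T(+) library with the second comparison, as the second shares E(-)T(-) with the first. All 8 subunits were lower in the exercised library. *Cct6a* was lower by 2.26-fold, a log2 difference of -1.17 [-1.27 to -1.08]. *Cct4* was lower by 2.16-fold at -1.11 [-1.23 to -1.0], with 928 against 2142 reads. *Cct2* was lower by 2.02-fold at -1.01 [-1.11 to -0.91]. These 3 of 8 were the members at or past 2-fold, where 42.0% of filtered genes were past it in either direction, 17.7% downward and 24.3% upward, and 33.7% of those with a mean of 100 or more. *Cct5* at -0.96 [-1.06 to -0.85], *Cct3* at -0.87 [-0.96 to -0.78], *Cct7* at -0.83 [-0.91 to -0.76], *Tcp1* at -0.81 [-0.90 to -0.71] and *Cct8* at -0.72 [-0.81 to -0.64] fell short of it. The median was -0.91 against 0.01 over all filtered genes. Scaled by library totals alone, 8 of 8 members were past the limit and their median was -1.52, while that of all filtered genes moved to -0.59. Under that scaling 7800 of the 15164 filtered genes were past the limit in either direction, against 6371 on the deposited scale. Dividing-cell markers were lower in 10 of 10 cases, 9 of them at least 2-fold. Lung markers were at least 2-fold higher in 8 of 8 cases and red blood cell genes in 8 of 8. So were 6 of 7 neutrophil, 4 of 4 T cell and 5 of 5 endothelial markers, while the neutrophil gene *Ltf* was at -1.40 [-1.54 to -1.26]. Their part in the TRiC differences was not tested.

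**Figure D2:**
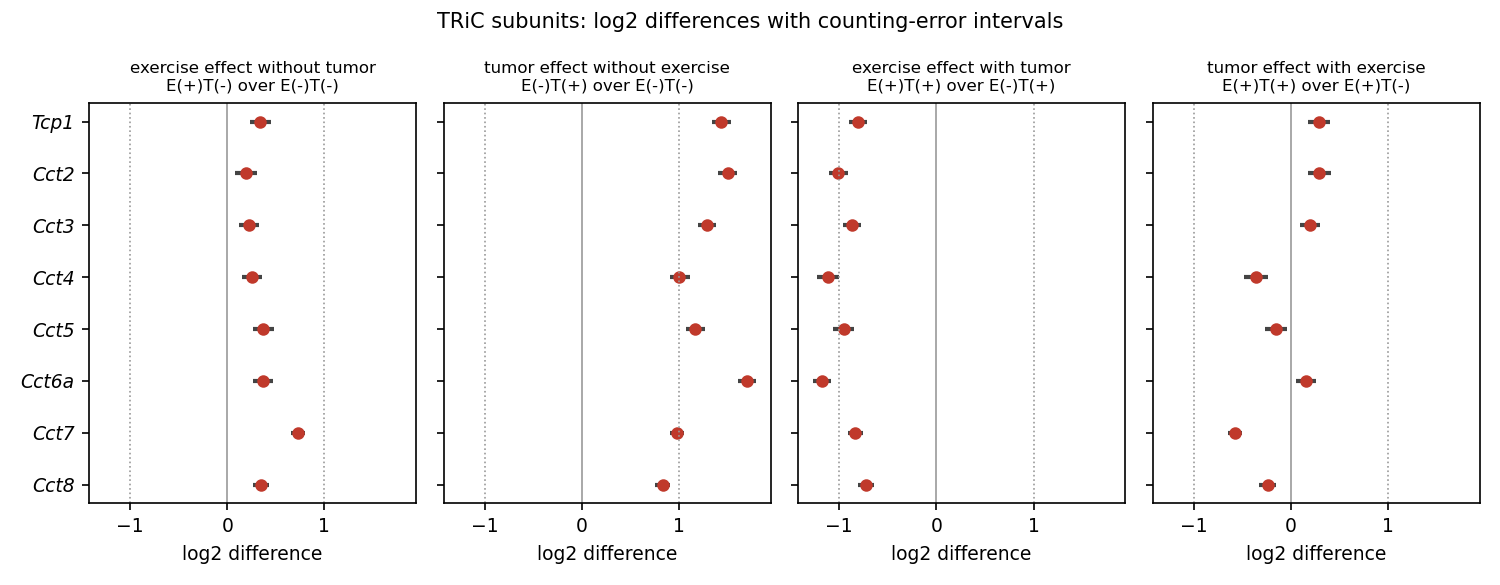
Log2 difference of each TRiC subunit gene in 4 comparisons (x axis), with points for the deposited values and bars for the 95% exact counting-error interval. Dotted lines mark 2-fold. All 8 genes lie to the right of 0 in the first pair of panels and to the left in the third, and in the last they lie on both sides, from -0.58 to 0.29.

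With exercise in both libraries, E(+)T(+) over E(+)T(-), the subunits split by gene. *Cct2* was higher by 0.29 [0.18 to 0.41], *Tcp1* by 0.29 [0.18 to 0.40], *Cct3* by 0.19 [0.09 to 0.30] and *Cct6a* by 0.16 [0.05 to 0.26]. *Cct7* differed by -0.58 [-0.65 to -0.50], *Cct4* by -0.36 [-0.48 to -0.24], *Cct8* by -0.24 [-0.33 to -0.15] and *Cct5* by -0.16 [-0.27 to -0.04]. No member was past 2-fold, 0 of 8, against 27.8% of filtered genes and 17.9% of those with a mean of 100 or more. The median was 0.00, the same as over all filtered genes. The direction of *Cct2*, *Tcp1*, *Cct3* and *Cct6a* turned when library totals alone were used, which moved the median of all filtered genes to -0.41. Of the markers, 8 of 10 for dividing cells, 8 of 8 for red blood cells and 7 of 7 for neutrophils were at least 2-fold higher in this pair. Their part in the TRiC differences was not tested.

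When the exercised tumor-bearing lung was set against the resting healthy control, the direction of 5 subunits depended on the scaling. On the deposited scale *Tcp1* differed by 0.63 [0.52 to 0.74], *Cct6a* by 0.52 [0.41 to 0.63], *Cct2* by 0.49 [0.37 to 0.61] and *Cct3* by 0.42 [0.31 to 0.53]. *Cct5* differed by 0.21 [0.09 to 0.33], *Cct7* by 0.15 [0.06 to 0.23] and *Cct8* by 0.11 [0.01 to 0.20]. *Cct4* differed by -0.11 [-0.23 to 0.01], which counting error alone could give. No member was past 2-fold, 0 of 8, against 29.2% of filtered genes and 19.5% of those with a mean of 100 or more. The median was 0.32. With library totals alone 6 of 8 members were lower, since *Cct2*, *Cct3*, *Cct5*, *Cct7* and *Cct8* turned, and the median was -0.18. With totals that leave out hemoglobin 3 of 8 were lower, since *Cct7* and *Cct8* turned, and the median was 0.14. Dividing-cell markers were at least 2-fold higher in 10 of 10 cases, red blood cell markers in 8 of 8 and neutrophil markers in 7 of 7, while 3 of 4 T cell markers were at least 2-fold lower. What these had to do with the subunit values was not tested.

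The exercise differences were above 0 without tumor and below 0 with tumor for 8 of 8 members, as they were for 24.9% of all filtered genes and 28.2% of those with a mean of 100 or more. The exercise effect with tumor minus that without ranged from -1.07 for *Cct8* to -1.56 for *Cct7*, with a median of -1.27. Over all filtered genes the median was 0.02, with 49.5% below 0 and 18.9% at or below -1. The comparisons share no library, but each rests on a single pair, so the difference between conditions was not tested. An additive limma fit over the 4 libraries, with exercise and tumor as factors, has this difference as its 1 residual degree of freedom per gene and also draws on the spread of the other genes through a trend on mean expression. It called 0 of 15164 genes for exercise at a Benjamini-Hochberg adjusted p under 0.05, with 753 (4.97%) at an unadjusted p under 0.05, and 495 (3.26%) for tumor, with 17.8% at an unadjusted p under 0.05. Of the 8 members, 0 were called for either term. The tumor estimates in limma were 0.93 ± 0.49 (SE) for *Cct6a*, with an adjusted p of 0.35, 0.90 ± 0.47 for *Cct2*, with 0.34, and 0.86 ± 0.47 for *Tcp1*, with 0.36. For the other members the adjusted p of the tumor term in limma lay between 0.45 and 0.89. The exercise term in limma gave an adjusted p of 1.0 for all 8.

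Within the complex, the share of subunit reads differed between libraries beyond counting error for every member but *Cct5*, whose intervals all overlapped. *Cct7* made up 21.6% of subunit reads in the resting control (95% Wilson interval 20.9 to 22.4) and 27.0% in the exercised control (26.3 to 27.7). It made up 18.4% in the resting tumor-bearing lung (17.9 to 19.0) and 19.6% in the exercised one (18.9 to 20.4). *Cct6a* made up 10.6% (10.1 to 11.2), 10.3% (9.84 to 10.8), 14.9% (14.4 to 15.4) and 12.5% (11.9 to 13.1). *Cct7* was thus most prominent in the exercised healthy lung, and *Cct6a* in both tumor-bearing lungs. *Cct4* went from 10.9% in E(-)T(-) to 8.29% in E(+)T(+). *Cct8* held 16.4%, 15.7%, 12.6% and 14.5% in the order used above. *Cct5* stayed between 9.45% and 9.95% in all 4 libraries, the narrowest range of any member. A share is set by the other members too, so a rise in one lowers the rest. From the lowest to the highest member, normalized read counts spread 3.34-fold in E(+)T(-) and 1.95-fold in E(-)T(+).

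**Figure D3:**
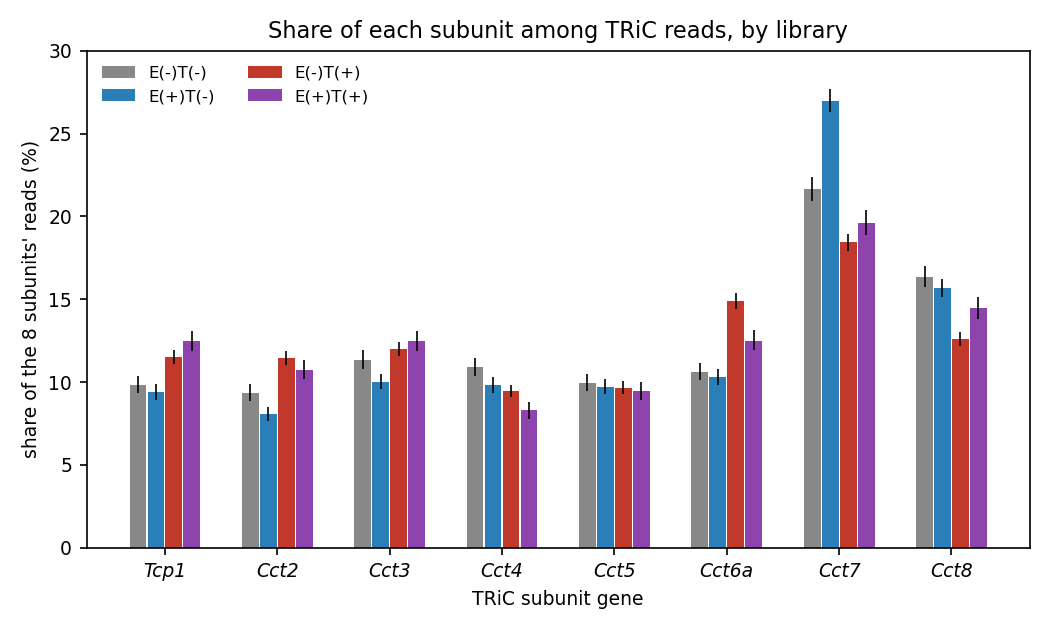
Share of each subunit among the reads of all 8 TRiC subunit genes (y axis, percent), with a bar per library and 95% Wilson intervals for counting error. Cct7 reaches 27.0% in E(+)T(-) and Cct6a 14.9% in E(-)T(+), while Cct5 stays between 9.45% and 9.95%.

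By the RefSeq gene ends, neighbouring genes bear on the 3′ ends of 2 members. For *Cct6a* this end is less sure. Its span is 59.1 kb, against 24.6 kb for *Cct3*, the next longest. The GENCODE annotation types *Cct6a* as a processed transcript, with 0 protein-coding transcripts. Where its reads ended was not tested. *Acat3* lies on the opposite strand and covers the last 1255 bases of *Tcp1*, including the 3′ end that the kit reads. *Acat3* had 997, 1216, 2145 and 1144 reads, with differences of 0.40, 1.47, -0.81 and 0.26 for exercise without tumor, tumor at rest, exercise with tumor and tumor with exercise, close to those of *Tcp1*. *Usp16* covers the last 193 bases of *Cct8* from the opposite strand. It had 597, 711, 370 and 502 reads, with differences of 0.36, -0.32, 0.53 and -0.15 in the same order of comparisons. The first and last had the sign of *Cct8* and the other two the opposite sign. Whether the authors' counting used strand is not given in the sources used here, so reads of *Tcp1* and *Acat3*, and those of *Cct8* and *Usp16*, cannot be told apart where the genes overlap. Processed pseudogenes of *Tcp1* and *Cct3* are annotated on chromosome 4 and could also share reads with their parent genes.

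The partner genes of TRiC were taken from lists of cochaperones, clients and other chaperones. Their counts stand against the shares of all filtered genes past 2-fold, which were 5.28% higher and 4.70% lower for exercise without tumor, 20.6% and 25.7% for tumor at rest, 24.3% and 17.7% for exercise with tumor and 14.9% and 13.0% for tumor with exercise. No list was tested against them. Prefoldin, the complex that delivers unfolded actin and tubulin, had 6 genes past the filter. At rest, 1 of 6 prefoldin genes was at least 2-fold higher with tumor, *Pfdn1* at 1.43 [1.32 to 1.55], and *Pfdn5* was the lowest at -0.72 [-0.81 to -0.63]. In tumor-bearing mice, 2 of 6 were at least 2-fold lower with exercise, *Pfdn4* at -1.15 [-1.47 to -0.85] and *Pfdn1* at -1.08 [-1.21 to -0.96], while *Pfdn5* was highest at 0.54 [0.45 to 0.64]. The median of the list was -0.91 there and 0.60 for the tumor comparison at rest. No prefoldin gene was past 2-fold in healthy mice with exercise, 0 of 6, from -0.21 for *Vbp1* to 0.44 for *Pfdn1*. Of the 3 phosducin-like genes 2 passed the filter and 0 were past 2-fold in any comparison. Their tumor differences at rest were -0.72 [-1.0 to -0.45] for *Pdcl* and -0.07 [-0.33 to 0.19] for *Pdcl3*. With exercise they were -0.32 and 0.04 in healthy mice and -0.16 and -0.71 in tumor-bearing mice.

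The actin and tubulin genes encode the main clients. With tumor at rest, 7 of 15 were at least 2-fold higher and 2 of 15 at least 2-fold lower, against 20.6% and 25.7% of all filtered genes. *Tubb3*, a beta tubulin best known from neurons, had 0 reads in both healthy libraries, 31 in E(-)T(+) and 19 in E(+)T(+). *Tubb6* went from 204 to 2427 reads, a difference of 3.93 [3.73 to 4.15]. *Tubb5*, a widely expressed beta tubulin, differed by 2.65 [2.61 to 2.71] and *Tuba1b* by 2.35 [2.30 to 2.39]. The lowest was *Tuba8* at -1.67. *Actb* at 0.22 and *Actg1* at 0.29 did not reach 2-fold. With exercise in tumor-bearing mice 4 of 15 were at least 2-fold lower, with *Tubb6* lowest at -2.53 [-2.69 to -2.38], and 3 of 15 higher, with *Tuba8* highest at 1.72. Both counts were near the shares of all filtered genes, 17.7% lower and 24.3% higher. In healthy mice with exercise 2 of 15 were past the limit, *Tubb2b* at 1.29 and *Tubb2a* at 1.06, and the lowest was *Tuba8* at -0.56. Tubulin genes are close relatives, and reads of near-identical ends may be split between them. Of 7 tubulin cofactors, which assemble the tubulin dimer after TRiC has folded its chains, 1 was past the limit with tumor at rest, *Tbcd* at 1.27, and the lowest was *Tbcel* at -0.40. With exercise 0 of 7 were past it, from -0.50 for *Tbce* to 0.32 for *Tbcb* in healthy mice and from -0.48 for *Tbca* to 0.82 for *Tbcel* in tumor-bearing mice.

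Among 12 other clients, 6 were at least 2-fold higher and 1 lower with tumor at rest, against 20.6% and 25.7% of all filtered genes. The mitotic kinase gene *Plk1* was highest at 5.42, and *Cdc20*, the activator of the anaphase-promoting complex, stood at 4.03. *Plk1* is also on the dividing-cell list. *Gnb4*, a G protein beta subunit, was lowest at -1.50. With exercise in tumor-bearing mice 4 of 12 were at least 2-fold lower, *Plk1* at -2.28, *Cdc20* at -1.99, the deacetylase gene *Hdac3* at -1.73 and *Gnb2* at -1.03. The highest was *Stat3* at 0.69. In healthy mice 1 of 12 was past the limit with exercise, the cyclin gene *Ccne1* at -1.21 [-2.82 to -0.02], with only 7 against 19 reads. *Plk1* was highest at 0.94 [0.33 to 1.61], with 61 against 34 reads.

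Of the 6 chaperonin relatives 5 passed the filter. Of these, 3 were at least 2-fold higher with exercise in healthy mice and with tumor at rest, *Hspd1*, *Hspe1* and *Bbs12*. *Hspd1*, the mitochondrial Hsp60 chaperonin, stood at log2 values of 9.89, 11.17, 11.61 and 10.18 in the order of libraries used above. Its differences were 1.28 [1.18 to 1.38] for exercise without tumor, 1.72 [1.62 to 1.82] for tumor at rest and -1.43 [-1.54 to -1.33] for exercise with tumor. Its lid *Hspe1* differed by 1.69 [1.55 to 1.82], 1.46 [1.32 to 1.60] and -0.78 [-0.91 to -0.64]. Both were thus further from the resting control after exercise in healthy mice than any TRiC subunit. *Bbs12*, a chaperonin-like gene, went from 2 reads in the resting control to 50 in the exercised control and 76 in the resting tumor-bearing lung. Its differences of 4.18 [2.83 to 7.84] and 5.02 [3.71 to 8.69] were the highest of the list. *Bbs10*, another chaperonin-like gene, had 22, 11, 15 and 2 reads. It was the lowest of the list with exercise, at -0.84 [-2.08 to 0.22] in healthy mice and -2.33 [-5.99 to -0.71] in tumor-bearing mice. *Bbs10*, *Bbs12* at -1.78 and *Hspd1* were the 3 of the list at least 2-fold lower with exercise in tumor-bearing mice, and *Hspe1* was the highest. *Mkks*, also chaperonin-like, had 448, 383, 268 and 137 reads, and its tumor difference at rest of -0.37 [-0.60 to -0.15] was the lowest of the list. *Cct6b*, the testis relative of *Cct6a*, had at most 4 reads in any library.

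The list of cytosolic Hsp70, Hsp90 and Hsp110 chaperones also held the cochaperones *Dnajb1*, *Dnaja1*, *Stip1* and *Bag3* and the regulator *Hsf1*. In healthy mice 13 of 13 were higher with exercise, 9 of 13 at least 2-fold, against 5.28% of all filtered genes, with a median of 1.30. The inducible Hsp70 genes *Hspa1b* at 3.74 [3.58 to 3.91] and *Hspa1a* at 3.44 led, and these near-identical copies may share reads. *Hsf1* was lowest at 0.48. With tumor at rest 1 of 13 was at least 2-fold higher, *Hsp90ab1* at 1.06, and 4 of 13 lower, *Hspa1a* at -4.05, *Hspa1b* at -2.21, the Hsp110 gene *Hsph1* at -1.81 and *Dnaja1* at -1.08. The median of this list was 0.06 there, against 1.23 for the subunits. With exercise in tumor-bearing mice *Hspa1a* at 1.57 and *Dnajb1* at 1.01 were at least 2-fold higher, and *Hspa4l* at -1.68, *Hsp90ab1* at -1.55 and *Hspa8* at -1.02 lower. With tumor under exercise 10 of 13 were at least 2-fold lower, with a median of -1.82, with *Hspa1b* lowest at -6.25 and *Bag3* highest at 0.20, whereas no TRiC subunit was past the limit. These are differences between the same pairs of libraries, and the difference between the lists was not tested.

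**Figure D4:**
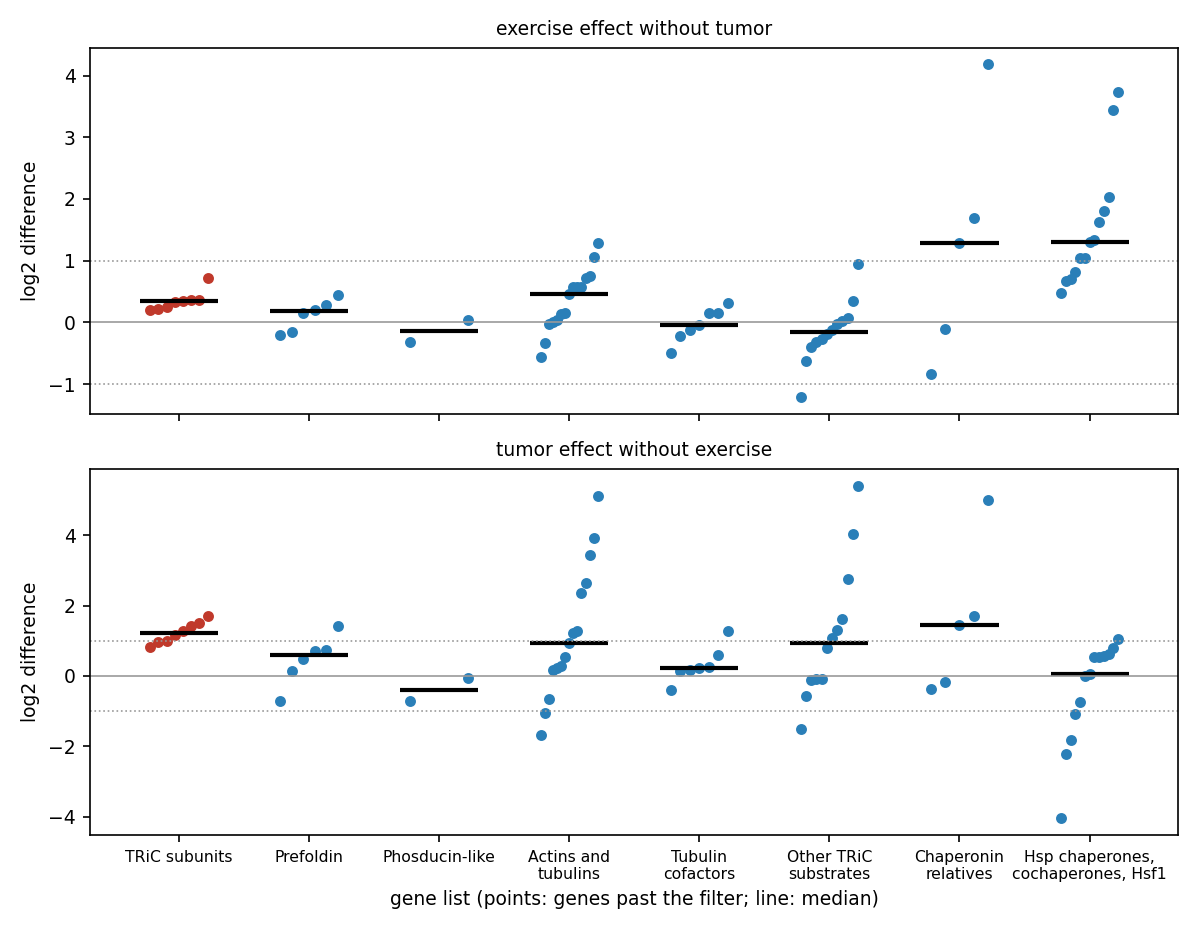
Log2 differences of TRiC subunits (red) and partner gene lists (blue) for exercise without tumor (top) and tumor without exercise (bottom), with 1 point per gene past the filter, dotted lines at 2-fold and a black line at each list's median. The list of heat shock chaperones, their cochaperones and Hsf1 has its median at 1.30 in the top panel and 0.06 in the bottom one, where the subunits have 0.34 and 1.23.

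Other genes had a pattern like that of the subunits. Centred on each gene's own mean, the 8 members averaged -0.47 in the resting control, -0.12 in the exercised control, 0.77 in the resting tumor-bearing lung and -0.17 in the exercised one. Likeness was measured as the Euclidean distance to this average over the 4 libraries, among 9388 other genes with 100 or more normalized reads on average. The nearest was *Zrsr2*, a splicing factor gene, at 0.04, with log2 values of 8.55, 8.90, 9.81 and 8.90. It was followed by *Snhg18* at 0.05, *Nom1* at 0.06, *Uvssa* at 0.07 and *Smarca5*, *Ssr3*, *Actl6a* and *Agpat6* at 0.09. *Rpl35* and *Hars* came next at 0.10. The median distance of all candidates was 1.15. Measured in the same way against the mean of the other 7 subunits, *Cct5* lay at 0.10 and *Cct3* at 0.20. *Tcp1*, *Cct4*, *Cct2*, *Cct8* and *Cct6a* lay between 0.32 and 0.43, and *Cct7* was farthest at 0.55. Ranked among the candidate genes, *Cct5* came 12th and *Cct3* 71st, and the other members lay between rank 301 and rank 1279, so that many other genes were nearer to the subunit mean than most subunits were. With 4 points per gene, such closeness is a description of these libraries.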

How the data were processed

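Per the labels, total lung RNA was made into QuantSeq 3′ libraries, which prime at the poly(A) tail. The authors aligned the reads with Bowtie2 to mm10 (both named in the submitters' processing notes), counted them with bedtools coverage and applied the quantile normalization of edgeR. Tool versions, annotation and use of strand are not given in the sources used here. The deposited log2 values are log2(normalized read count + 1) at 3 decimals, in 1 table of 23282 rows per library. Whole reads were recovered by inverting the negative binomial quantile step with a fitted dispersion of 0.372, and 100.0% of the values were met within 0.001. For the subunits the recovered count can be off by up to 2 reads.

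Comparisons are differences of the deposited log2 values, with a limit of 2-fold, over 15164 rows with a mean normalized count of at least 4. A fold change on this scale understates the change of low genes. Intervals of read ratios are exact (Clopper-Pearson), those of shares are Wilson intervals, both at 95%, and the 3-read floor was between 0.224 and 0.321 CPM. The intervals cover counting error only, because each group is 1 library. They take every read as independent. Reads copied by PCR and not tagged by molecule are not independent, so the intervals may be too narrow even for counting error. The additive model used limma 3.58.1 in R 4.3.3 with a trend on mean expression and 1 residual degree of freedom. It was tried on simulated data with strictly additive tumor effects far larger than the subunit estimates. That trial does not show how the fit does for effects of the subunits' size. The recovery of reads was also tried on simulated data. Alternatives were other scalings, filters and a pseudocount of 4. All 8 members are named in every comparison. For each partner list and comparison described, the text names the highest and lowest difference and, up to 5, the genes past the limit. A few more were named after their values were seen, among them *Tubb5*, *Tuba1b*, *Actb*, *Actg1* and *Cdc20*. A marker list that holds a withheld item is not reported here. The members and lists were chosen with earlier results of these data known. Promoter windows are from RefSeq (GRCm38.p6).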

Additional observations from a re-analysis of the deposited data

Results flagged for a closer look

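For all 8 subunits, exercise went with a higher level in healthy lung and a lower level in tumor-bearing lung, which is why each is listed here. The same signs were found for 24.9% of all filtered genes and 28.2% of those with a mean of 100 or more. The exercise effect with tumor minus that without was -1.56 for *Cct7* (0.73 and -0.83), -1.54 for *Cct6a*, -1.37 for *Cct4* and -1.33 for *Cct5*. It was -1.21 for *Cct2*, -1.15 for *Tcp1*, -1.09 for *Cct3* and -1.07 for *Cct8* (0.35 and -0.72). Of all filtered genes, 18.9% were at or below -1. The intervals for counting error, by a normal approximation, reached from -1.66 to -1.46 for *Cct7* and from -1.19 to -0.95 for *Cct8*. With 1 library per group the difference between the conditions was not tested. Every value shares the E(-)T(+) library, where dividing-cell markers were highest and lung markers lowest.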

How the results depend on the processing

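No subunit value past 2-fold changed sign under any alternative. That check was weak, because a change of sign there takes a shift of at least 2-fold. Of 216 subunit values, 166 moved by less than counting error. The larger pseudocount and the recovered reads could hardly move genes with at least 928 reads in each library. The 50 values that moved further all lay under library totals alone or totals that leave out hemoglobin. Library totals alone moved most of the subunit values. No paired analysis was possible because each group held 1 library, and for the same reason no library could be left out. With library totals alone, the median subunit difference was 0.26 for exercise without tumor, 1.34 for tumor at rest, -1.52 for exercise with tumor, with 8 members past 2-fold in place of 3, -0.41 for tumor with exercise and -0.18 for E(+)T(+) over E(-)T(-). Of all 15164 filtered genes, those past 2-fold for exercise with tumor went from 6371 to 7800 under library totals. The difference between the exercise effects became -1.79. This scaling moved the share of all filtered genes past the limit that were higher in the exercise comparison with tumor from 57.8% to 31.4%, in the tumor comparison with exercise from 53.5% to 28.4% and in E(+)T(+) over E(-)T(-) from 50.7% to 24.5%. The 11 subunit values that changed sign, none of them past 2-fold, lay in the last 2 of these comparisons, 9 under library totals and 2 (*Cct7* at -0.03 and *Cct8* at -0.07) under totals that leave out hemoglobin. Under the latter totals the medians were 0.25 for exercise without tumor, 1.14 for tumor at rest, -1.0 for exercise with tumor and 0.14 for E(+)T(+) over E(-)T(-). With median-of-ratios size factors they were 0.37 for exercise without tumor, 1.27 for tumor at rest and 0.34 for E(+)T(+) over E(-)T(-). Taking the tracer share out of E(+)T(-), chosen after seeing the data, gave 0.28 for exercise without tumor and 0.07 for tumor with exercise.

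Counts over all genes moved with the filter. Genes past 2-fold numbered 1513 for exercise without tumor, against 2606 with no filter and 200 at a mean of at least 100. At that stricter filter they numbered 3601 for tumor at rest, 3171 for exercise with tumor, 1686 for tumor with exercise and 1828 for E(+)T(+) over E(-)T(-), with fewer genes tested. In limma, the exercise term called 58 genes with no filter, 7 with library totals and 5 with a pseudocount of 4, against 0. The tumor term called 1284 with no filter, 0 at a mean of at least 100 (1473 at an unadjusted p under 0.05), 828 with library totals and 884 with a pseudocount of 4, against 495. No subunit was called in any of 80 such refits of a gene and term. Every subunit had at least 928 reads in each library, and the spread between mice was not measured.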

Other observations

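Some members, 3 of the 8, share their 5′ ends with a gene on the opposite strand. *Mrpl18*, a mitochondrial ribosomal protein gene, overlaps the first 17 bases of *Tcp1*, *Psph*, an enzyme gene of serine synthesis, the first 94 of *Cct6a*, and *Pradc1* the first 466 of *Cct7*. The kit reads the other end of these transcripts. *Mrpl18* had 585, 700, 946 and 543 reads in the order of libraries used above. Its differences were 0.37 for exercise without tumor, 1.06 for tumor at rest, -0.71 for exercise with tumor and -0.02 for tumor with exercise. *Psph* had 77, 101, 221 and 91 reads, with differences of 0.50, 1.87, -1.18 and 0.20 in the same order. *Pradc1* had 70, 93, 90 and 64 reads, with differences of 0.52, 0.72, -0.39 and -0.19. *Snora20*, a small nucleolar RNA gene inside *Tcp1*, had at most 27 reads.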
